A study of Mus musculus with 6 samples.

Results

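The lateral plate mesoderm factors described here are 9 genes, Hand1, Hand2, Foxf1, Gata4, Gata6, Wnt2, Tbx5, Isl1 and Prrx1, taken by name from the 19342 gene names of a table of RNA-seq counts. The table holds 6 libraries of total RNA from mesoderm progenitor cells of the mouse tailbud (strain C57BL/6), with 1 library per condition. All cells were kept in DMEM with 10% FBS on feeder layers of mitomycin C-treated mouse embryonic fibroblasts from wild-type mice of the same strain. The conditions were no growth factor at 0 h and at 96 h in culture, rhBMP4 for 5 h, rhBMP4 for 11 h, rhBMP4 and rhFGF8 for 5 h, and rhBMP4 and rhFGF4 for 11 h. Growth factors were added after 96 h, so the 5 h and 11 h libraries had spent 101 h and 107 h in culture. The purpose was to see how growth factors act on the fate of the progenitors, and the title of the series names Bmp signaling as maintaining their state. No untreated library of 101 h or 107 h was analysed here, so added factor and further culture cannot be told apart. FGF8 was paired with 5 h and FGF4 with 11 h only, so the kind of FGF and the time cannot be told apart either.

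The lateral plate is the part of the mesoderm farthest from the midline. It splits into a splanchnic layer, which forms the heart and the muscle and connective tissue of the gut and lung, and a somatic layer, which forms the limb buds and the body wall. BMP signals from the lateral side of the embryo favour this fate, whereas the tailbud progenitors normally feed the paraxial mesoderm that becomes somites. Hand1, Hand2, Gata4, Gata6, Tbx5 and Isl1 are transcription factors used by the forming heart, Foxf1 and Wnt2 act in the splanchnic layer, and Prrx1 marks limb and body wall mesenchyme.

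The stretches upstream of Hand2, Wnt2 and Isl1 are shown because Hand2 and Wnt2 were high in the same libraries while Isl1 kept about the same level in all 6. RefSeq's promoter table for GRCm38.p6 held an entry for 4 of the 8 members looked up (Hand2, Wnt2, Isl1 and Prrx1). Each stretch begins 250 bases before the RefSeq start site and ends before the first annotated exon of its own gene, and each reads 5′ to 3′ on the gene's strand. The Hand2 stretch is chr8:57320733-57320982 (plus strand), the Wnt2 stretch is chr6:18030586-18030695 (minus strand) and the Isl1 stretch is chr13:116309690-116309938 (minus strand). The Hand2 stretch also lies within Hand2os1, a noncoding gene on the opposite strand, and exons of some of its transcripts reach into it. Capitals mark GATAA or its reverse complement TTATC, the core sequence bound by GATA factors.
Hand2: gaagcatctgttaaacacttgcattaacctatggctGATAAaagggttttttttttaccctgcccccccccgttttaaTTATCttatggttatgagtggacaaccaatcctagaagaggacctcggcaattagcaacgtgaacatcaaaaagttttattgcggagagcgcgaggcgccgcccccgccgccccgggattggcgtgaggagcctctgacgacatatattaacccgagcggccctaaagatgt
Wnt2: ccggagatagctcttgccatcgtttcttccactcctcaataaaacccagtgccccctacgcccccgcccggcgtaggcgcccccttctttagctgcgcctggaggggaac
Isl1: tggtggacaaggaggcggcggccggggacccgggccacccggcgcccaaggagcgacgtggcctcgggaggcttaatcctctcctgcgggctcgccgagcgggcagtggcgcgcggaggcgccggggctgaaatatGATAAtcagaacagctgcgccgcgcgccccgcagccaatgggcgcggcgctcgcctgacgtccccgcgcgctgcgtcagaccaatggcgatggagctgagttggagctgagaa
The Hand2 stretch held GATAA 2 times and the Isl1 stretch 1 time, against a match in 22.6% and 22.5% of all 32851 promoters over the same length. The Wnt2 stretch of 110 bases held no GATAA, which 12.0% of promoters held over that length. In Prrx1, 190 bases were searched and held 1 GATAA (18.7% of promoters). The E-box CANNTG, the kind of site bound by Hand proteins and their partners, matched 2 times in Hand2 (66.2% of promoters) and 1 time in Isl1 (66.1%). GGCGCC, a GC-rich SMAD element, matched 1 time in Hand2 (9.59% of promoters), 1 time in Wnt2 (3.45%) and 2 times in Isl1 (9.52%). TAATTA, a homeodomain core, matched 1 time in Hand2 (4.84%) and 1 time in Prrx1 (4.02%), and both matches overlap a GATAA. The T-box core AGGTGT and the forkhead core TGTTTAC matched in none of the 4 stretches. All motifs were searched on both strands, and a match is a run of letters, not a measured site.

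The 6 libraries held between 179196459 and 272743104 counts. The growth factor columns of the table are out of register with the gene names and were placed on them by a probabilistic alignment, after which 16888 genes were kept. All 9 members were kept, each with a placement probability of at least 0.998 in every column except Gata4 after BMP4 for 11 h, where it was 0.993. Over the 13770 genes with at least 1 CPM (counts per 1000000 of the TMM-scaled library) in at least 1 library, the BMP4 5 h and BMP4 with FGF8 5 h libraries were close to 0 h, with 60 and 39 genes at least 2-fold apart from it. By contrast, 833 genes were 2-fold apart between 0 h and 96 h. The labels place both 5 h libraries after the 96 h point, and the values below follow the labels. T, the T-box factor Brachyury that defines the tailbud, was 83.98 CPM at 0 h, 7.72 at 96 h, 78.6 with BMP4 for 5 h, 44.98 with BMP4 for 11 h, 74.1 with FGF8 and 11.1 with FGF4. Tbx6 and Msgn1, factors of paraxial mesoderm, followed the same order of high and low libraries, so the tailbud label held at 0 h and little of these markers was left at 96 h.

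At 96 h without growth factor, 7 of the 9 members were higher than at 0 h by the rule used throughout, a log2 ratio of CPM + 0.5 of at least 1 with an exact 95% counting interval of the fold that excludes 1. Over all genes the same rule called 3.8% higher. Hand1, Gata4 and Wnt2, under 2 CPM at 0 h, were more than 20-fold higher at 96 h. Gata6, Tbx5, Foxf1 and Hand2 were between 3.08-fold and 7.46-fold higher, and Isl1 and Prrx1 were not called. The median log2 ratio of the 9 members was 2.06, against -0.0021 over all genes. With 1 library per condition no ratio between libraries has a replicate check, and every interval covers counting error only. In bulk RNA, more cells of a type and more RNA per cell cannot be told apart.

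Hand1, a basic helix-loop-helix factor of lateral and extraembryonic mesoderm (chromosome 11, 57828705 to 57832818, mm10), was 1.57 CPM at 0 h, 31.8 at 96 h, 1.71 with BMP4 for 5 h, 16.3 with BMP4 for 11 h, 2.19 with FGF8 and 27.7 with FGF4. It was low at 0 h and in both 5 h libraries and high in the other 3, a split read from these levels themselves. The share of all genes with the same split was not counted. The level at 96 h was 20.2-fold that at 0 h (counting interval 18.2 to 22.6).

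Hand2, the related factor of the heart and posterior limb bud (chromosome 8, 57320983 to 57324633), was 8.69 CPM at 0 h, 26.8 at 96 h, 8.16 with BMP4 for 5 h, 19.1 with BMP4 for 11 h, 8.65 with FGF8 and 21.4 with FGF4. Its levels fell into the same low and high libraries as Hand1, but its 96 h level was 3.08-fold that at 0 h (2.93 to 3.24), from a higher start. Of the Hand2 exon bases, 19.6% overlap Hand2os1 on the other strand. The kit keeps strand, but the strand setting of the counting is not given in the sources used here, so reads of the 2 genes may be mixed.

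Foxf1, a forkhead factor that defines the splanchnic layer (chromosome 8, 121084386 to 121088144), was 5.16 CPM at 0 h, 17.7 at 96 h, 5.36 with BMP4 for 5 h, 13.1 with BMP4 for 11 h, 5.49 with FGF8 and 16.4 with FGF4. The 3 low libraries did not differ beyond their counting intervals when taken as neighbours in order. Foxf1 was 3.43-fold higher at 96 h than at 0 h (3.21 to 3.66).

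Wnt2, a secreted Wnt ligand of splanchnic mesoderm near the lung and the inflow of the heart (chromosome 6, 17988940 to 18030585), was 0.756 CPM at 0 h, 15.8 at 96 h, 0.813 with BMP4 for 5 h, 8.79 with BMP4 for 11 h, 1.02 with FGF8 and 13.5 with FGF4. The only ligand among the members thus showed the same high and low libraries as the factors. It was 20.97-fold higher at 96 h than at 0 h (17.9 to 24.7).

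Gata4, a zinc-finger factor of heart and foregut (chromosome 14, 63198922 to 63271692), was 0.479 CPM at 0 h, 10.99 at 96 h, 0.429 with BMP4 for 5 h, 3.78 with BMP4 for 11 h, 0.494 with FGF8 and 14.6 with FGF4. From 94 to 3104 counts, it is the member with the largest ratio between its highest and lowest library, and the one whose highest library was BMP4 with FGF4. At 96 h it was 22.9-fold higher than at 0 h (18.9 to 28.2). The value with BMP4 for 11 h has the lowest placement probability of all member values when both untreated columns are used (0.993). Placed against the 96 h column alone, the best row held 1738 counts in place of 632.

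Gata6, the close relative of Gata4 in heart and endoderm, was 3.02 CPM at 0 h, 22.5 at 96 h, 2.98 with BMP4 for 5 h, 12.9 with BMP4 for 11 h, 3.52 with FGF8 and 21.97 with FGF4. The 96 h and FGF4 levels did not differ beyond their counting intervals, and both stood above BMP4 for 11 h. Gata6 was 7.46-fold higher at 96 h than at 0 h (6.88 to 8.10).

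Tbx5, a T-box factor of the forelimb bud and the heart (chromosome 5, 119832668 to 119885219), was 2.29 CPM at 0 h, 11.1 at 96 h, 2.75 with BMP4 for 5 h, 5.70 with BMP4 for 11 h, 2.80 with FGF8 and 10.1 with FGF4. The same 3 libraries were high as for Hand1. It was 4.85-fold higher at 96 h than at 0 h (4.41 to 5.35).

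Isl1, a LIM homeodomain factor of the second heart field, hindlimb field and motor neurons (chromosome 13, 116298281 to 116309689), was 14.6 CPM at 0 h, 13.6 at 96 h, 13.3 with BMP4 for 5 h, 15.9 with BMP4 for 11 h, 16.9 with FGF8 and 14.0 with FGF4. No order of low and high libraries shared with the other members was seen, and neighbours in its order overlapped in counting interval except BMP4 for 11 h and 0 h. The fold of 96 h over 0 h was 0.932 (0.889 to 0.978).

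Prrx1, a paired-related homeodomain factor of limb bud and body wall mesenchyme (chromosome 1, 163245119 to 163313710), was 37.7 CPM at 0 h, 63.1 at 96 h, 41.8 with BMP4 for 5 h, 52.1 with BMP4 for 11 h, 40.2 with FGF8 and 56.2 with FGF4. Its 3 high libraries were the same as those of the 7 members that were called, but within a range of 1.68-fold (1.63 to 1.72) between 0 h and 96 h, which is under the 2-fold rule.

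**Figure D1:**
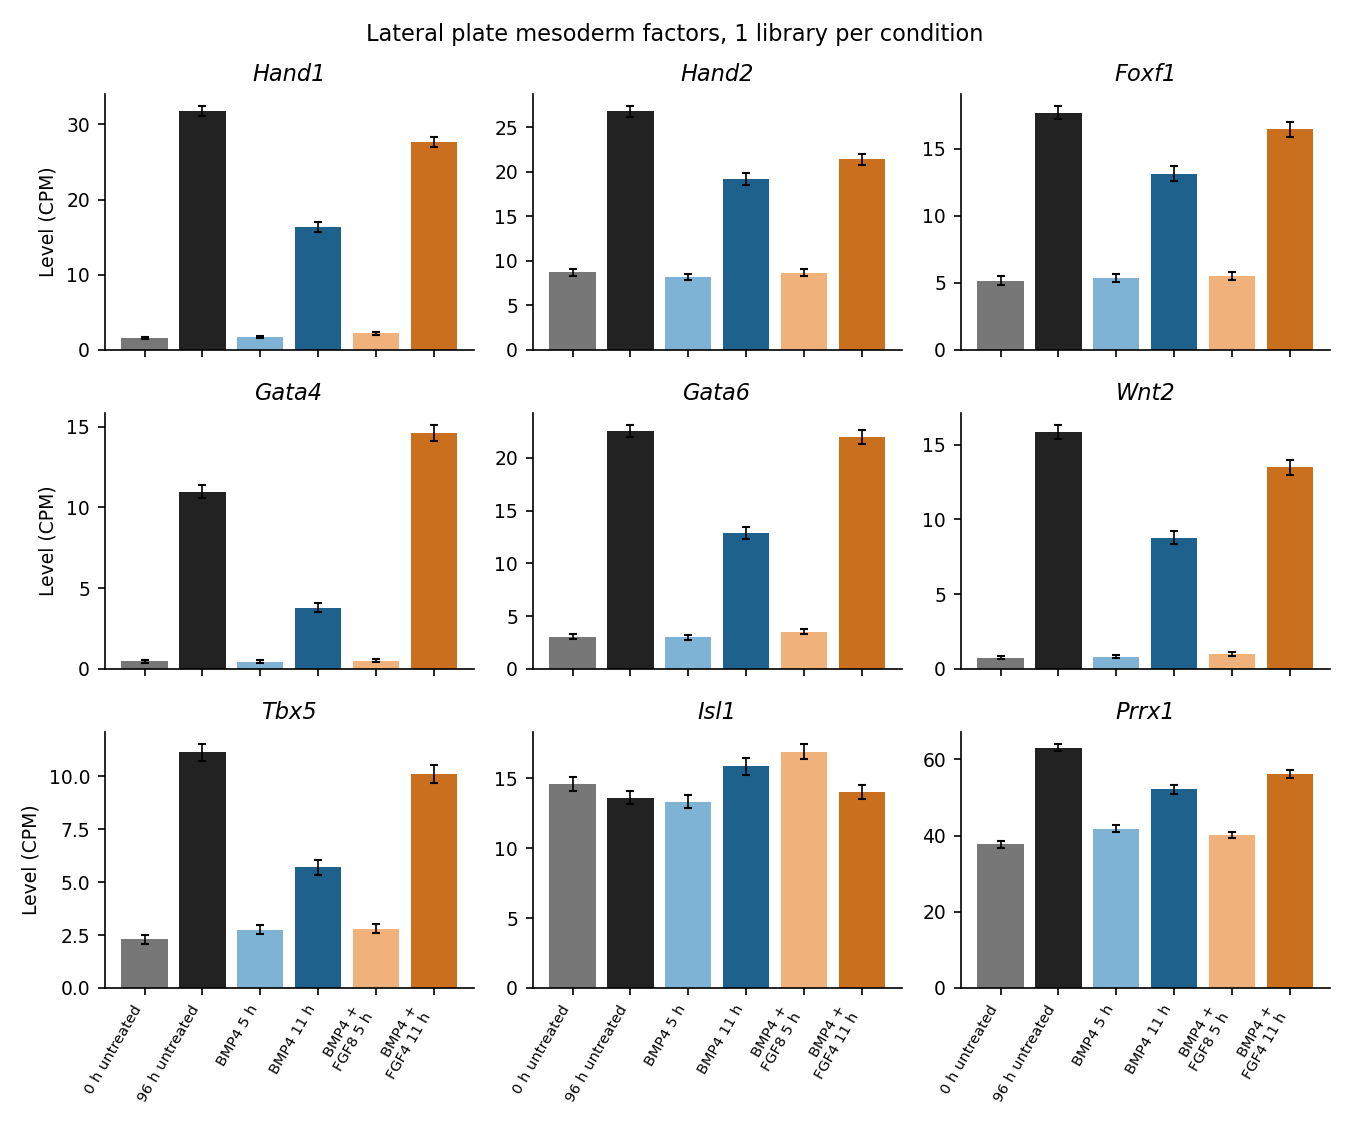
Level of each member in CPM (bars, axis from 0) in the 6 libraries, with exact 95% counting intervals. The panels other than Isl1 and Prrx1 show tall bars at 96 h, with BMP4 for 11 h and with BMP4 and FGF4, and short bars at 0 h and in both 5 h libraries, while Isl1 stays between 13.3 and 16.9 CPM and Prrx1 between 37.7 and 63.1 CPM.

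Per kilobase of exon, the scale on which genes can be compared, the order of the members changed with culture. At 0 h the highest levels were Hand2 (3.70 CPM per kb), Isl1 (3.69) and Prrx1 (3.40), and the lowest was Gata4 (0.123). At 96 h the order was led by Hand1 (15.9 CPM per kb) and Hand2 (11.4), followed by Foxf1 (7.33) and Wnt2 (7.03), while Isl1 stood at 3.44 and Tbx5 was lowest at 2.38. Hand1 thus moved from 0.787 CPM per kb, the fifth of the 9 levels, to the first.

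Markers of other cell types, taken as sums, were higher in the same libraries as the members. The 11 endothelial markers summed to between 11.2 and 12.2 CPM at 0 h and in the 5 h libraries, and to 124 CPM at 96 h, 63.1 with BMP4 for 11 h and 172 with FGF4. The 12 heart muscle markers that were placed, contractile and natriuretic genes, summed to between 28.4 and 29.4 CPM in the low libraries and to 150, 71.9 and 104 CPM in the high ones. Markers of feeder fibroblasts (11 placed genes, led by collagens and Postn) summed to between 196 and 294 CPM in the low libraries, and to 904 CPM at 96 h, 561 with BMP4 for 11 h and 1328 with FGF4. Over 0 h, 8 of the 11 were called higher at 96 h and 5 with BMP4 for 5 h, against 3.8% and 0.349% of all genes. Thy1 (0.423 CPM) and Fbln2 (14.7 CPM) were instead lowest at 96 h, and Pdgfra stayed between 77.4 and 93.1 CPM. The 8 red blood cell markers summed to between 15.5 and 109 CPM in the low libraries and to 3111, 2946 and 1997 CPM in the high ones. Only Hemgn with BMP4 for 5 h, among these 4 lists, was at 0 counts.

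Summed markers of cell types in which Gata4, Gata6 and Isl1 are also used did not share this order. The 7 placed endoderm markers summed to 45.5 CPM at 0 h and 27.6 at 96 h. The 10 markers of motor and sensory neurons summed to between 20.2 and 25.6 CPM in all 6 libraries, none of them at 0 counts. Single genes of these lists differed from the sums. Of 5 endoderm markers analysed, 2 were higher at 96 h than at 0 h and 3 lower, against 3.8% and 2.25% of all genes. Of 7 neuron markers analysed, none was called. Among the weakly expressed markers, Sox17, Isl2, Lhx3, Lhx4, Chat and Slc18a3 were higher in the members' high libraries than in their low ones. The 8 placed tailbud markers went the other way, from 293 CPM at 0 h to 21.1 at 96 h, with 136 CPM after BMP4 for 11 h and 36.8 with FGF4. The part of these other cells in the members' levels was not tested.

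**Figure D2:**
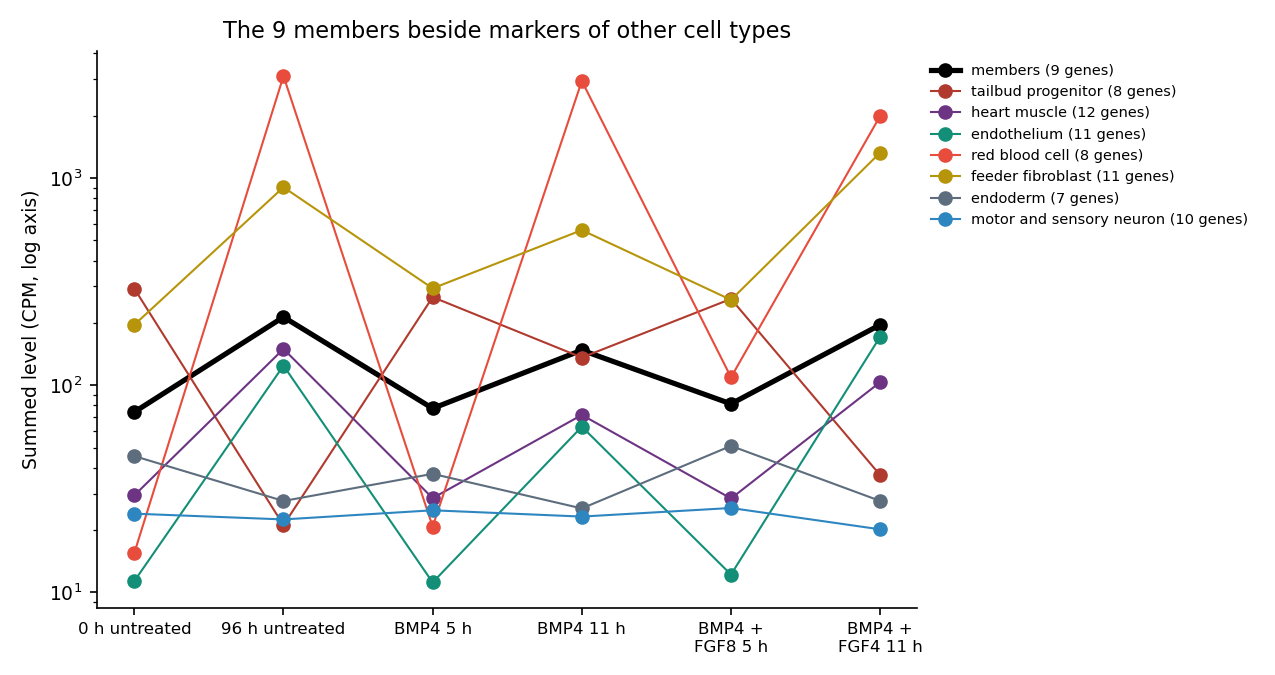
Summed level in CPM (log axis) of the 9 members and of the placed markers of 7 cell types in each of the 6 libraries, with lines drawn only to guide the eye. The members are high in the same libraries as the heart muscle, endothelial, red blood cell and feeder fibroblast lists, the tailbud list is high where they are low, and the neuron list stays between 20.2 and 25.6 CPM.

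After BMP4 for 5 h, the members were close to their 0 h levels. Of the 9, 7 were lower than at 96 h (3.22% of all genes were called lower and 2.16% higher), and none was called against 0 h (0.349% of all genes called higher and 0.0871% lower). The log2 ratios over 0 h ranged from -0.13 (Isl1) to 0.22 (Tbx5), with a median of 0.05. With no CPM added, the fold over 0 h was 1.20 for Tbx5 (counting interval 1.06 to 1.35) and 1.11 for Prrx1 (1.08 to 1.14). For Isl1 it was 0.912 (0.867 to 0.960), and the other members had intervals that include 1. Hand1 was 18.6-fold lower than at 96 h, Wnt2 19.5-fold lower and Gata4 25.6-fold lower. The 96 h library also served the comparison with 0 h above, so the 2 sets of ratios are not independent.

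Adding FGF8 to BMP4 for 5 h left every member within 2-fold (0.167% of all genes called higher and 0.0145% lower). The log2 ratios over BMP4 alone ranged from -0.05 (Prrx1) to 0.33 (Isl1). On the plain scale, with no CPM added, Isl1 was 1.27-fold higher with FGF8 (counting interval 1.21 to 1.33) and Hand1 1.28-fold (1.12 to 1.47). Foxf1, Tbx5, Hand2 and Gata4 had intervals that include 1. Placed against the 96 h column alone, the best Foxf1 row with FGF8 held 37 counts in place of 1224, at a probability of 0.599. Wnt2 with FGF8 kept its row there, at a probability of 0.452. Against 0 h, none of the 9 was called with BMP4 and FGF8 (0.254% of all genes called higher and 0.029% lower). Whether these small folds exceed the spread between cultures cannot be measured with 1 library each.

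After BMP4 for 11 h, the 7 members stood between their 0 h and 96 h levels. All 7 were higher than at 0 h by the 2-fold rule (3.27% of all genes), and only Gata4 was lower than at 96 h (0.276% of all genes), by 2.90-fold. Hand1 and Tbx5 missed the rule against 96 h with log2 ratios of -0.94 and -0.91. Gata4's call rests on the less secure placement: with 1738 counts its log2 ratio over 96 h would be -0.07.

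Against BMP4 for 5 h, 6 of the 9 members were higher at 11 h (2.47% of all genes called higher and 0.32% lower). Wnt2 was 10.8-fold higher (counting interval 9.25 to 12.7), Hand1 9.53-fold (8.55 to 10.6), Gata4 8.82-fold (7.09 to 11.1) and Gata6 4.32-fold (3.96 to 4.72). The Gata4 fold rests on the same less secure placement. Foxf1 was 2.45-fold and Hand2 2.34-fold higher. Tbx5 had a log2 ratio of 0.93 on the CPM + 0.5 scale, just under the rule. Isl1 and Prrx1 had log2 ratios of 0.24 and 0.31.

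In the pair of libraries that also received an FGF, FGF4 at 11 h against FGF8 at 5 h, 7 of the 9 members were higher (4.51% of all genes called higher and 1.74% lower), Tbx5 included at 3.61-fold. Gata4 was 29.6-fold higher (24.4 to 36.1) and Hand1 12.6-fold (11.5 to 13.9). This pair was added after the data had been seen.

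The contrast of 11 h with 5 h is the only one with 2 libraries on each side, and it was tested with edgeR over 16748 genes, counting the FGF difference as spread within each time. In this edgeR test 6 of the 9 members were higher at 11 h at an adjusted p under 0.05, against 2.66% of all genes higher and 0.496% lower. Hand2 rose by a log2 fold of 1.27 ± 0.09 (SE, edgeR adjusted p = 0.0111) and Wnt2 by 3.60 ± 0.27 (edgeR adjusted p = 0.0111). Hand1 rose by 3.50 ± 0.30 (edgeR adjusted p = 0.0157) and Foxf1 by 1.45 ± 0.14 (edgeR adjusted p = 0.0171). Gata6 rose by 2.42 ± 0.28 (edgeR adjusted p = 0.0281). Gata4 rose by 4.32 ± 0.71 (edgeR adjusted p = 0.0491), with the largest SE of the 9 members. Its BMP4 11 h value rests on the less secure placement. Tbx5 had a fitted log2 fold of 1.51 ± 0.29 and missed the threshold (edgeR adjusted p = 0.0592), as did Prrx1 at 0.40 ± 0.08 (0.0593). Isl1 had a log2 fold of -0.02 ± 0.13 (edgeR adjusted p = 0.94).

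Each edgeR fit with 1 library left out has a time with a lone library, which is assumed to vary like the pair of the other time. Without the BMP4 5 h library or without the BMP4 with FGF8 5 h library, none of the 9 members passed, with edgeR adjusted p between 0.0699 and 0.302 for the 6 that had passed, and 0.154% and 0.184% of all genes were called higher. The fitted log2 folds were close to those with all 4 libraries, at 3.33 and 3.69 for Hand1 and at 4.23 and 4.43 for Gata4. DESeq2 on all 4 libraries called 8 members higher, with 9.16% of all genes higher. Without the BMP4 11 h library or without the BMP4 with FGF4 11 h library, 8 of the 9 members passed, where 20.6% and 13.8% of all genes were called higher. The fitted folds kept their direction for the 8 members other than Isl1 in each of these fits. The 2 libraries of a time also differ in FGF, and nothing in the labels says whether they came from separate cultures, so the p-values measure only the spread between these 4 libraries.

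**Figure D3:**
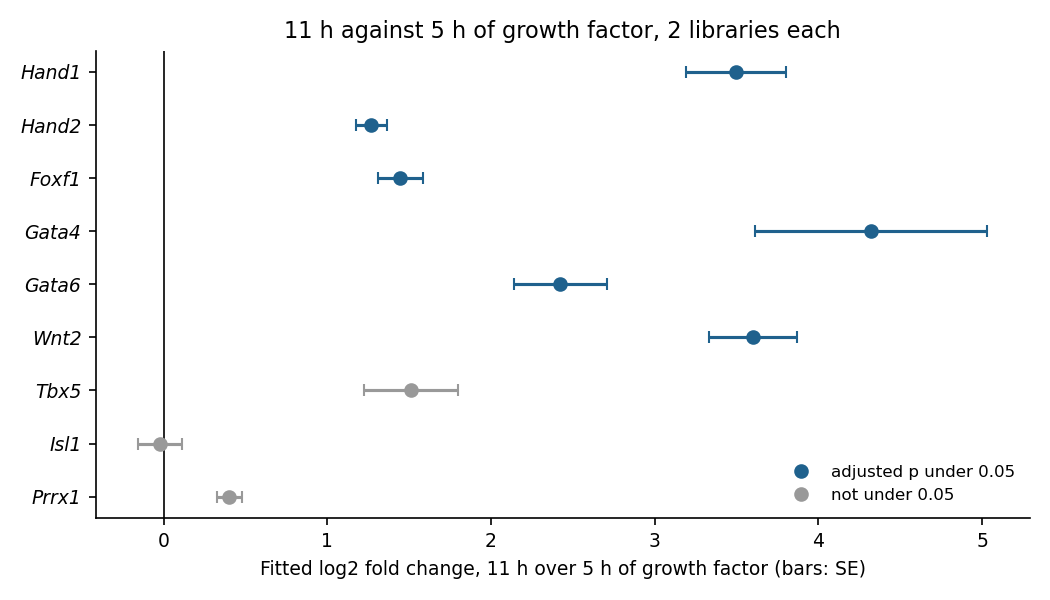
Fitted log2 fold change of each member at 11 h over 5 h of growth factor (points, 2 libraries per time) with its standard error (bars) from edgeR. Blue points have an adjusted p under 0.05: Hand1, Hand2, Foxf1, Gata4, Gata6 and Wnt2 lie between 1.27 and 4.32, Tbx5 and Prrx1 are above 0 without passing, and Isl1 is at -0.02.

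With FGF4 beside BMP4 for 11 h, the members stood close to their 96 h levels. None of the 9 was called against 96 h (1.13% of all genes called higher and 0.0871% lower), with log2 ratios from -0.32 (Hand2) to 0.39 (Gata4). Against BMP4 alone for 11 h, Gata4 was called, 3.86-fold higher (3.54 to 4.21), where 1.19% of all genes were called higher. This call has the same limit as above, since with 1738 counts in the BMP4 library the log2 ratio of Gata4 would be 0.48. Tbx5 was 1.77-fold higher with FGF4, Gata6 1.71-fold, Hand1 1.70-fold and Wnt2 1.53-fold, each with a counting interval above 1 but under the 2-fold rule. Hand2 (1.12-fold) and Foxf1 (1.25-fold) differed less, and Isl1 was the one member lower with FGF4, at 0.883-fold (0.838 to 0.931). The endothelial markers, at 172 CPM with FGF4 and 63.1 without, and the feeder fibroblast markers, at 1328 and 561 CPM, moved in the same direction as Gata4. Of the 6 placed markers of mesothelium and epicardium, tissues in which several members are also used, 3 were higher with FGF4 than with BMP4 alone: Upk3b (2.77 to 10.98 CPM), Upk1b (0.323 to 2.57 CPM) and Tbx18 (5.84 to 12.5 CPM). Their list summed to 69.1 CPM with BMP4 alone and 93.1 CPM with FGF4, and to between 71.4 and 91.1 CPM in the other 4 libraries. The part of these cells in the members' levels with FGF4 was not tested.

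The 7 members that were called at 96 h can be set on a scale on which the 0 h level is 0% and the 96 h level is 100%. After BMP4 for 5 h their median was 0.379%, and with FGF8 it was 2.05%. After BMP4 for 11 h the median was 50.4%, from 31.4% (Gata4) to 63.5% (Foxf1). With FGF4 for 11 h the median was 88.2%, from 70.3% (Hand2) to 134% (Gata4). All 523 genes called higher at 96 h had medians of 3.10%, 4.69%, 52.3% and 107% in the same order of libraries. The members' median was thus within 3 percentage points of that of these genes in the first 3 libraries and lower with FGF4. With FGF4 the middle 50% of these genes ran from 75.8% to 144%. Of the 7 members only Hand2 (70.3%) lay outside it. After BMP4 for 11 h, Gata4 (31.4%) and Tbx5 (38.5%) lay below the middle 50% of these genes, 41.9% to 63.9%. Gata4's position there rests on the less secure row of 632 counts. With the row of 1738 counts its log2 ratio over 96 h would be -0.07, a level near that at 96 h. In the BMP4 11 h library the median was 81.9% for the 8 red blood cell markers and 32.4% for the 8 heart muscle markers called higher at 96 h.

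**Figure D4:**
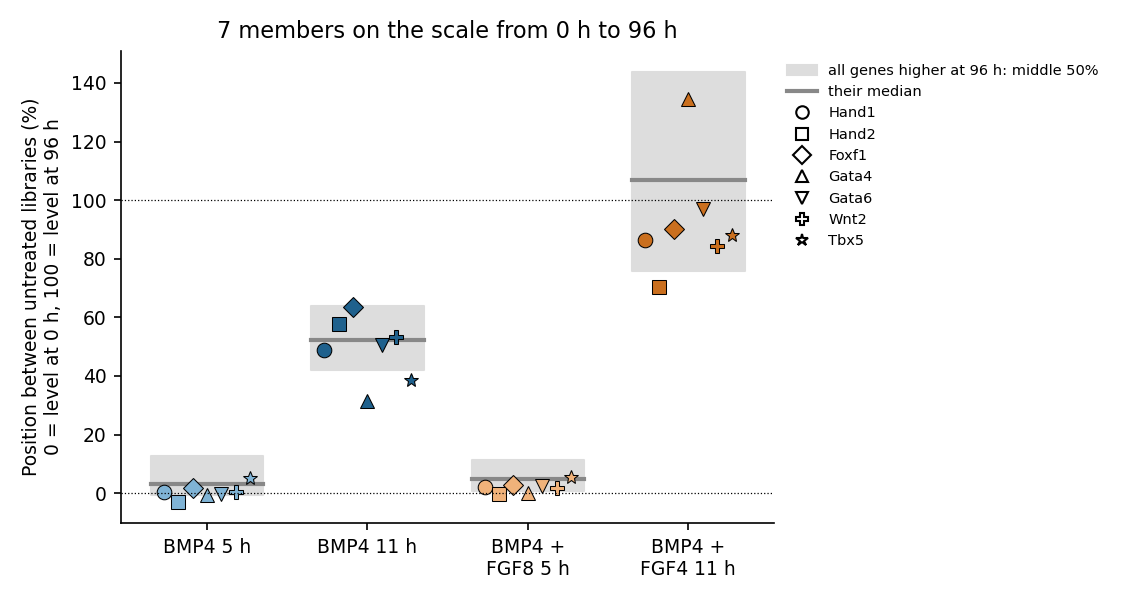
Position of the 7 members called at 96 h (symbols) between their level at 0 h (0%) and at 96 h (100%) in the 4 growth factor libraries, with the median (grey line) and middle 50% (grey band) of all 523 genes called higher at 96 h. Both 5 h libraries sit near 0%, BMP4 for 11 h between 31.4% and 63.5%, and BMP4 with FGF4 between 70.3% and 134%. The 31.4% is Gata4, whose BMP4 11 h value has a less secure placement.

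Among other genes of the splanchnic layer, 6 of 16 were higher at 96 h than at 0 h and 1 was lower, with a median log2 ratio of 0.62. Hlx, a homeobox gene of visceral mesenchyme, went from 0.581 to 6.67 CPM. The lower gene was Osr1, a zinc-finger factor of intermediate and lateral mesoderm, at 12.96 CPM at 0 h and 5.55 at 96 h. Of 13 cardiac progenitor genes analysed, 5 were higher and 1 lower (median 0.44). They included Tbx20, a T-box factor of the heart (1.13 to 14.9 CPM), Fgf10, a ligand of the second heart field and limb (3.23 to 9.36 CPM), and Mef2c, a muscle regulator (3.11 to 8.28 CPM). Of 19 limb and body wall genes, 8 were higher and 1 lower (median 0.86). The largest among the better expressed were Lhx9 (1.62 to 10.8 CPM), Alx4 (4.87 to 21.8 CPM), Alx1 (2.69 to 10.4 CPM) and Twist1 (25.1 to 56.6 CPM), all regulators of limb or body wall mesenchyme. The background of 3.8% higher and 2.25% lower applies to these 3 lists too.

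In none of these 3 lists was a gene called in BMP4 for 5 h over 0 h, nor between BMP4 with FGF8 and BMP4 alone at 5 h. In the edgeR test of 11 h against 5 h, 4 of 16 splanchnic, 4 of 15 cardiac progenitor and 7 of 19 limb and body wall genes were higher, and 1 limb gene, the homeobox gene Dlx5, was lower, against 2.66% of all genes higher and 0.496% lower. These edgeR calls were lost when either 5 h library was left out. DESeq2 on all 4 libraries called 9, 8 and 14 higher and 2, 1 and 1 lower. Over all genes it called 9.16% higher and 4.73% lower. When an 11 h library was left out, edgeR called more genes of each list higher, and also more of all genes in both directions. Hlx rose by 2.73 ± 0.27 on the log2 scale (edgeR adjusted p = 0.0201) and Lhx9 by 1.88 ± 0.18 (edgeR adjusted p = 0.0179). With FGF4 over BMP4 alone at 11 h, Tbx20 was the cardiac progenitor gene called (6.39 against 17.2 CPM) and Tbx18, a T-box factor of the epicardium and body wall, the splanchnic one (5.84 against 12.5 CPM). No limb and body wall gene was called there.

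Of 16 genes that bind Hand, GATA or LIM factors or belong to the same families, 4 were higher at 96 h than at 0 h and 1 lower (median log2 ratio 0.40), against 3.8% and 2.25% of all genes. Tcf3, Tcf4 and Tcf12, the E proteins that pair with Hand factors, stayed between 158 and 172, between 59.8 and 65.3, and between 187 and 218 CPM over the 6 libraries. Ldb1, which links LIM proteins, stayed between 91.9 and 100.2 CPM. Zfpm1, a cofactor of GATA proteins, went from 8.40 CPM at 0 h to 19.6 at 96 h, 7.99 with BMP4 for 5 h, 15.0 with BMP4 for 11 h, 8.27 with FGF8 and 17.9 with FGF4. Sall4, a factor of early embryonic and tailbud cells, went the other way, from 123 CPM at 0 h to 48.1 at 96 h. Zfpm2, in the same list as Zfpm1, stayed between 9.29 and 12.98 CPM over the 6 libraries. Gata1, also in that list, went from 0.101 CPM at 0 h to 5.91 at 96 h. Gata2 and Gata3 were not securely placed and have no values here.

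Of 15 genes of the BMP pathway analysed, 1 was higher and 2 were lower at 96 h than at 0 h (median log2 ratio 0.08), against 3.8% and 2.25% of all genes, and none was called in BMP4 for 5 h over 0 h. Id1, a direct target of BMP signals, stayed between 26.7 CPM at 96 h and 35.2 with FGF8. Id3, another direct target, was 47.9 CPM with BMP4 for 5 h and 65.7 with BMP4 for 11 h, less than 2-fold apart. Between 5 h and 11 h of BMP4 alone, 2 of the 15 were called higher, against 2.47% of all genes. They were the ligand Bmp5 (2.44 to 6.73 CPM) and Id4 (2.02 to 5.18 CPM), the latter named after its values were seen. Smad6 and Smad7, feedback inhibitors of the pathway, were not securely placed. In the edgeR test of 11 h against 5 h none of the 15 passed in either direction, against 2.66% of all genes higher and 0.496% lower. DESeq2 called 6 higher and 1 lower, where it called 9.16% of all genes higher and 4.73% lower.

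Over the 6 libraries the members other than Isl1 had closely similar patterns, with Pearson correlations of log2(CPM + 0.5) between 0.952 (Gata4 with Prrx1) and 1.00 (Hand1 with Wnt2), while Isl1 had correlations between -0.33 and -0.21 with the others. These describe 6 libraries that split into a low and a high set, which the points share with many other genes. Among 10005 named genes with at least 5 CPM in a library, those nearest to the members' mean pattern included Hlx (r = 0.9991), Pag1, Tmem132e, Asb4, Prdm6, Dnm1, Npcd, Popdc2 and Rhbdl3, each at 0.9969 or above. Among the 2 nearest to Foxf1 was Pag1 (0.9984), and among those to Gata6 was Hlx (0.9982). Nearest to Hand2 was Pax1 (0.9999), to Hand1 Spns2 (0.9991), and to Tbx5 Cttnbp2 (0.9987). Nearest to Gata4 were Cd34 and Tie1, both endothelial genes (0.9999 and 0.9997), and to Wnt2 was Csf2rb, a cytokine receptor gene of blood cells (0.9992). Nearest to Prrx1 was Mab21l2 (0.9983), and nearest to Isl1 was Pcca (0.950), a weaker likeness.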

How the data were processed

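The deposited values are raw counts per gene made by the authors, not normalized. Tools listed in the submitters' processing notes are DESeq, HTSeq, STAR 2.4.0e and cutadapt, with the build mm10, and neither their roles nor the strand and pair settings are stated. Even numbers made up 65.4% to 70.9% of counts from 1 to 20, and intervals are too narrow if each mate was counted.

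The 4 growth factor columns hold 19415 to 19826 values beside 19342 names. Each was placed on the sorted names by a pair hidden Markov model that compares a row with the range of both untreated columns. Genes with a probability of at least 0.99 in all 4 columns, and the same row pairs when columns of 1 time were aligned directly, were kept (98.9% to 99.0% of counts). Levels outside the untreated range are placed less readily. On simulated columns at least 99.8% of expressed genes were placed. Of the genes given large shifts of level there, 95% to 98% were placed. The unnamed rows added to these columns held low counts only, so a mix-up with a well expressed unnamed row was not tested.

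Counts were scaled by TMM with edgeR 4.0.16 (R 4.3.3). Ratios used CPM + 0.5 and a 2-fold rule with Clopper-Pearson 95% intervals. The edgeR quasi-likelihood test used Benjamini-Hochberg adjustment over 16748 genes. In counts simulated for 11 h against 5 h, it recovered 79.6% of 2-fold and 99% of 4-fold changes, with 8 of 185 calls false. The simulation gave all genes and libraries the same spread and held no FGF difference. In the data, 244 genes were 2-fold apart between the 11 h libraries and 25 between the 5 h libraries, so these rates may not hold there. DESeq2 1.42.0 was an alternative. The members, lists and rules were chosen with earlier results of these data known. All members are named. From each other list up to 4 called genes per comparison with a mean of at least 5 CPM are named, with markers set beside a member, and by likeness the 10 genes nearest the members' mean and the 2 nearest each member. Dlx5, Id4, Zfpm2 and Gata1 fall outside this rule and were named after their values were seen. Some genes that the rule selects are not reported here. Gene positions come from GENCODE M21, and promoters from RefSeq.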

Additional observations from a re-analysis of the deposited data

How the results depend on the processing

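The members' counts in the 8 comparisons were the same under DESeq2 size factors, 2 CPM added in place of 0.5, a minimum of 5 CPM and no minimum. With total counts only, 2 members were lower in BMP4 11 h than at 96 h (Hand1 joined at a log2 ratio of -1.02). Placement on the 96 h column alone gave 0 members lower there, 0 higher with FGF4 than with BMP4 alone at 11 h, and 1 lower with FGF8 than with BMP4 alone at 5 h (Foxf1 at -3.15, from a row with 37 counts at a probability of 0.599). In both placements on 1 untreated column only Isl1 and Prrx1 reached the placement threshold, so 0 of 2 members passed the edgeR test of 11 h against 5 h. In that test, leaving out 1 library at a time gave 0 to 8 members higher, an FGF covariate gave 7 and DESeq2 gave 8. No median position of the members moved beyond their spread. With 1 untreated column, the members on that scale were taken from best rows below the placement threshold, so this does not check their placement. Of the 10 genes nearest in pattern, 6 remained with 2 CPM added. Over all genes, counts called at 2-fold fell by more than 1.5 times with 2 CPM added, as from 523 to 289 higher at 96 h over 0 h, from 443 to 254 lower in BMP4 5 h than at 96 h, from 340 to 136 higher in BMP4 11 h than 5 h, and from 164 to 58 higher with FGF4. A minimum of 5 CPM gave 338, 280, 198 and 99. In the edgeR test, 446 genes higher and 83 lower became 1547 and 799 with DESeq2, between 26 and 3461 higher and between 0 and 2980 lower with 1 library left out, and 171 lower with an FGF covariate. No paired analysis was possible because the labels give no replicate numbers that pair libraries, and the FGF covariate above sets apart the libraries with and without an FGF (Tbx5 joined the calls, edgeR adjusted p = 0.0284). Depth limits little here, since the lowest member value is 94 counts, whereas the single library per condition limits every comparison.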
